A study of Mus musculus with 9 samples.

Results

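A set of 10 genes that handle nicotinamide and nicotinamide adenine dinucleotide (NAD) was followed in mouse liver cancer and in normal mouse liver. They were chosen by gene symbol, with earlier results of these data known, in which Nnmt had already stood out as one of the most reduced transcripts. Every probe set annotated to 1 of these symbols alone was read, and the main probe set of a gene was selected on the highest mean over all 9 arrays. Of the 10 genes, 9 were measured, by 14 probe sets, out of 18193 genes on the array. Cd38, an NAD glycohydrolase, had no probe set carrying its symbol alone and was not analysed here.

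NAD is the redox carrier of central metabolism and is also broken down by enzymes that use it as a substrate. The liver makes NAD from tryptophan through quinolinate, from nicotinic acid, and from the nicotinamide that NAD-consuming enzymes release. It also disposes of surplus nicotinamide, by methylating it and then oxidising the methylated product to pyridones. The genes measured here cover these routes. Nampt and the Nmnat enzymes salvage nicotinamide, Qprt and Nadsyn1 serve the tryptophan route, Nnmt and the aldehyde oxidases Aox1 and Aox3 serve disposal, and Sirt1 is a deacetylase that consumes NAD.

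The 5 tumours were hepatocellular carcinomas (HCC) of mice titled triple knockout (TKO). Their listed genotype was RbΔ/Δ; p130Δ/Δ; p107+/-, and they were dissected 4 months after adenovirus carrying Cre recombinase (Ad-Cre) had been injected into the spleen. The 4 controls were normal, tumour-free livers of adult wild-type mice, so genotype, virus and tumour state cannot be told apart. Total RNA was amplified in 2 rounds and hybridised to Affymetrix Mouse Genome 430 2.0 arrays, 1 per sample, and values are log2 expression made with RMA. In what follows a difference is tumour minus liver on that log2 scale, and its test is limma's over the whole array with a threshold of 0.05 on the adjusted p. The labels do not say whether each sample is a different animal, and p-values therefore reflect only how these samples vary.

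Facts of the whole array bear on every value below. Array medians were 6.22 to 6.27, and precision is limited by having 9 arrays. Of the targeted genes, read here by the main probe set alone, Rbl2 (p130) differed by -1.99 and passed as lower. Rb1 differed by 1.05 and passed as higher, and Rbl1 (p107) differed by -0.18 and did not pass. Whether these probe sets lie in the deleted parts of the genes was not checked. Xist, the RNA of the inactive X chromosome, read 6.34 in tumour 1, 6.39 in tumour 2 and 6.66 in liver 4, and at least 12.68 in the other 6 arrays. Eif2s3y, a gene of the Y chromosome, read 9.38 in tumour 1, 9.16 in tumour 2 and 10.3 in liver 4. In the other 6 arrays it read 3.55 to 4.32. By both genes tumours 1 and 2 and liver 4 read as male and the other 6 arrays as female. The labels used here do not state sex. Xist as a covariate and arrays with high Xist alone were fitted as alternatives. The part of sex in the differences was not otherwise tested. The log2 ratio of 3′ to 5′ Actb control probe sets, an index of RNA integrity, averaged 0.61 ± 0.08 in the 5 tumours and 0.96 ± 0.04 in the 4 livers (SD). These groups did not overlap (two-sided p = 0.00794 by exact permutation, the smallest this design gives, and 0.0159 adjusted over 2 controls). The Gapdh ratio ran the other way, at -0.21 ± 0.03 in tumours and -0.28 ± 0.05 in livers (exact permutation p = 0.0635). The part of RNA quality in the results was not tested.

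Promoters of 3 members are printed because these genes carry the comparisons below: Aox1 and Aox3 are neighbours on the chromosome that were both lower on average in tumours, and Nampt has 3 probe sets that differed in their calls. Each run is the RefSeq promoter, 250 bases before to 50 after the gene's start, on the plus strand of GRCm38.p6. Aox1 lies at chr1:58029719-58030018, Aox3 at chr1:58112886-58113185 and Nampt at chr12:32820085-32820384. Capitals mark matches to the motifs named after the sequences.
Aox1: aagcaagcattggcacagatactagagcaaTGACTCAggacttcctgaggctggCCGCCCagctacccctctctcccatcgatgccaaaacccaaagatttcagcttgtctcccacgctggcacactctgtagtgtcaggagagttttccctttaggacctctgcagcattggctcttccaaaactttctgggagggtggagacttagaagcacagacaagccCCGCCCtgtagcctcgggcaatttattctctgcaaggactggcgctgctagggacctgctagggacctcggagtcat
Aox3: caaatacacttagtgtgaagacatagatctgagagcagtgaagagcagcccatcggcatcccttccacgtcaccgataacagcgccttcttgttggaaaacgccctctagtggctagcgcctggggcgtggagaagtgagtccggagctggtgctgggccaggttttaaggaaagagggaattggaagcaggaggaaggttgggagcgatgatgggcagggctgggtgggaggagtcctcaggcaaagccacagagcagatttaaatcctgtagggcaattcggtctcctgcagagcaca
Nampt: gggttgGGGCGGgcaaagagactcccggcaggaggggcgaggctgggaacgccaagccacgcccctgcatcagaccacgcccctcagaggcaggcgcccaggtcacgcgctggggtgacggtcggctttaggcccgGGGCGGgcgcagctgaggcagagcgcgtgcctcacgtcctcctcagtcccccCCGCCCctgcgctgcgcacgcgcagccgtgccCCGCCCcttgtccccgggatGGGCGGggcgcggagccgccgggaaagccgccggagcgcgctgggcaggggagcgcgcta
The motifs, chosen after the promoters had been seen, were searched on both strands. They were the E-box CACGTG, the E2F motifs TTTCCCGC and TTTGGCGC, the AP-1 motif TGACTCA, the antioxidant response core TGACNNNGC, the C/EBP motif TTGCNNAA, the HNF1 motif GTTAAT and the GC box GGGCGG. Among all 32851 promoters of this length they were present in 7.15%, 1.07%, 0.514%, 5.2%, 12.4%, 10.8%, 7.1% and 35.7%, in that order. The Aox1 window held 1 AP-1 match and 2 GC boxes, the Aox3 window held no match, and the Nampt window held 5 GC boxes. GC content was 54.3% for Aox1, 55.0% for Aox3 and 76.3% for Nampt, against a median of 52.7% over all promoters. CpG dinucleotides numbered 7, 10 and 36 for Aox1, Aox3 and Nampt, against a median of 7. A promoter entry was matched for 9 of the 10 genes, all but Nnmt.

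Nnmt, the methyltransferase that converts nicotinamide to methylnicotinamide, was far lower in the tumours. Its probe set 1432517_a_at read 5.63, 6.01, 5.73, 6.57 and 5.90 in tumours 1 to 5, against 12.78, 13.49, 12.80 and 11.50 in livers 1 to 4. Every tumour lay below every liver, liver 4 was the lowest liver, and the means were 5.97 ± 0.37 in the 5 tumours and 12.64 ± 0.83 in the 4 livers (SD). The difference was -6.68 (SE 0.36, 95% interval -7.49 to -5.86), or 102-fold lower in tumours. It was the most negative difference among the 18193 genes. As Nnmt was chosen with this decrease known, it is given as a description with no test. The tumour values stood above the TrpnX negative controls, which read 3.69 to 4.36. Among arrays with high Xist the difference was -6.96 (3 tumours against 3 livers), and among those with low Xist it was -5.68 (2 tumours against 1 liver). In bulk samples, fewer cells of a type and less RNA per cell cannot be told apart.

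**Figure D1:**
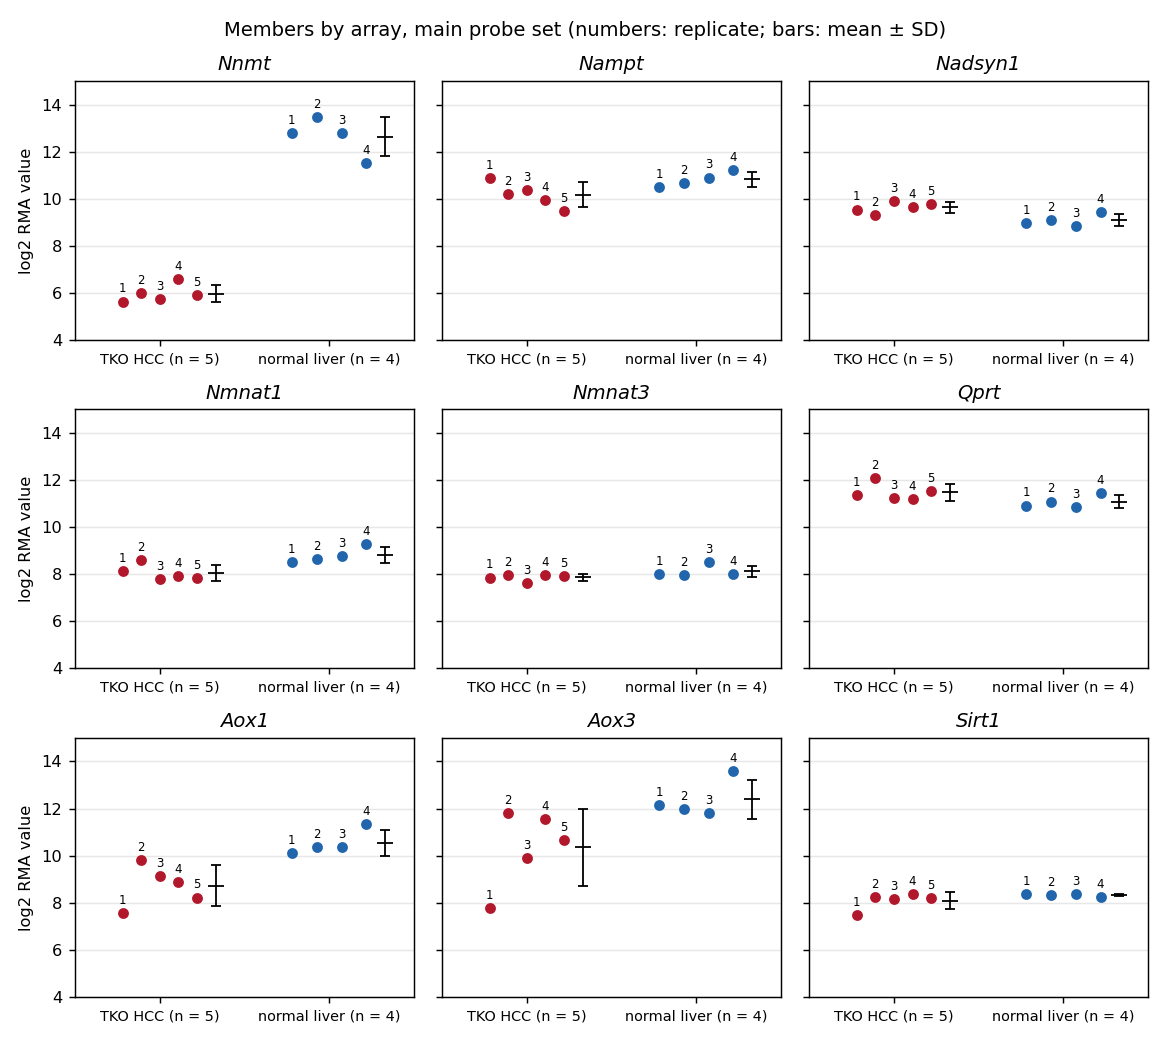
Log2 expression of the main probe set of each of the 9 measured genes, 1 point per array with group means, tumours left of livers. Nnmt tumours lie between 5.63 and 6.57 and its livers between 11.50 and 13.49, and Aox1 is the other gene whose groups do not overlap.

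The genes whose arrays ran most like those of Nnmt were Lect2, Cyp2c50, Slc1a2, Cyp1a2 and Oat. Likeness was the root mean square difference over the 9 arrays after centring each gene on its own mean, and it was 0.78 for Lect2, 0.94 for Cyp2c50, 0.96 for Slc1a2, 1.01 for Cyp1a2 and 1.07 for Oat. These genes differed between tumours and livers by -5.51, -6.40, -5.26, -5.34 and -5.75, in that order. The 9 arrays they share include the group difference itself.

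Aox1 and Aox3, the molybdenum-dependent aldehyde oxidases that can oxidise methylnicotinamide, were both lower on average in tumours. Aox1 (1419435_at) read 7.55, 9.81, 9.14, 8.88 and 8.22 in tumours 1 to 5, against 10.12, 10.37, 10.35 and 11.34 in livers 1 to 4. No tumour reached the lowest liver, and the means were 8.72 ± 0.87 in the 5 tumours and 10.54 ± 0.54 in the 4 livers (SD). Aox1 fell by 1.82 (SE 0.44, adjusted p = 0.0122), a 3.53-fold lower level, and it passed in all 17 alternative settings, with differences of -2.09 to -1.53. Aox3 (1418858_at) read 7.79, 11.83, 9.90, 11.56 and 10.68 in tumours 1 to 5, against 12.17, 11.98, 11.81 and 13.61 in livers 1 to 4. Tumour 2 lay above liver 3, so the groups overlapped, and the means were 10.35 ± 1.62 in the 5 tumours and 12.39 ± 0.82 in the 4 livers (SD). The Aox3 difference of -2.04 (SE 0.79, 95% interval -3.82 to -0.27) did not pass (adjusted p = 0.0734). Without tumour 2 it was -2.41 and passed (adjusted p = 0.0405). It did not pass without tumour 1 (-1.40, adjusted p = 0.0766) or without liver 4 (-1.64, adjusted p = 0.173). The range over the 9 arrays left out in turn was -2.41 to -1.40. Among arrays with high Xist the Aox3 difference was -1.27, and among those with low Xist it was -3.80, where liver 4 was the only liver.

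The spread of Aox3 among tumours was the widest of the measured genes, and tumour 1 and tumour 2 marked its ends. Tumour 1 was the lowest and tumour 2 the highest tumour for both oxidases, and liver 4 was the highest liver for both. Tumour 1 stood at -2.99 from the liver mean for Aox1 and at -4.61 for Aox3. Tumour 2 stood at -0.74 for Aox1 and -0.56 for Aox3. By the likeness measure the gene nearest to Aox3 was Aox1, at 0.76, closely followed by Fn3k at 0.77 and Klhl7 at 0.80. The 5 genes nearest to Aox1 were Cyp2j9, Akr1c14, Fam120c, Akr1c6 and Selenoo, at 0.35 to 0.47, and Aox3 was not among them. Aox1 and Aox3 are adjacent on chromosome 1 in the RefSeq order, ahead of Aox4 and Aox2.

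**Figure D2:**
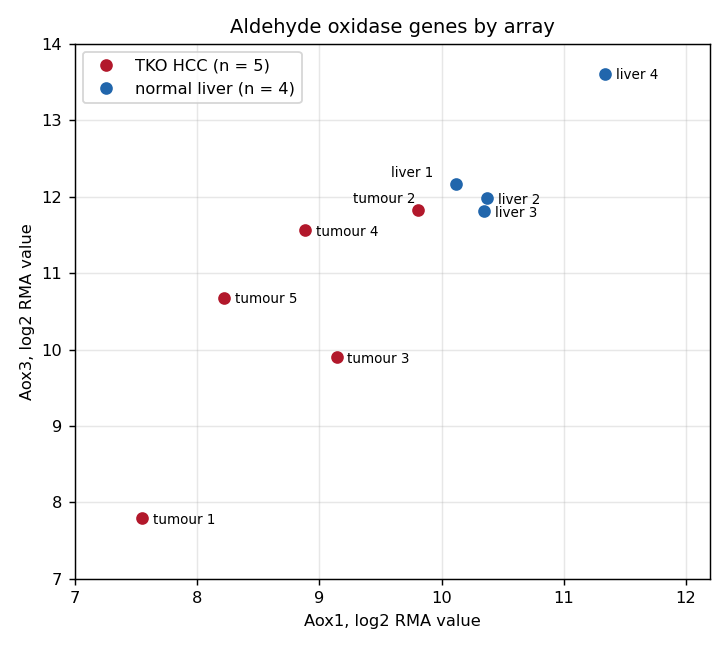
Aox3 against Aox1, both log2 expression, 1 point per array, with tumours and livers marked. Tumour 1 is lowest for both genes (7.55 and 7.79) and liver 4 is highest for both (11.34 and 13.61).

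Nampt, the rate-limiting enzyme of nicotinamide salvage, was read by 3 probe sets that were all lower on average in tumours, and 2 of them passed. The main probe set 1417190_at read 10.86, 10.19, 10.38, 9.95 and 9.47 in tumours 1 to 5, against 10.50, 10.67, 10.90 and 11.22 in livers 1 to 4. Tumour 1 lay among the livers, and the difference of -0.65 (SE 0.26, 95% interval -1.25 to -0.06) did not pass (adjusted p = 0.0843). Without tumour 1 the difference was -0.83 and passed (adjusted p = 0.0267). Probe set 1448607_at read 7.81, 7.18, 7.41, 7.65 and 6.88 in tumours, against 8.03, 8.16, 8.71 and 8.82 in livers. Its tumours all lay below its livers, and it fell by 1.04 (SE 0.23, adjusted p = 0.00891). Probe set 1455320_at read 9.87, 9.28, 9.58, 9.71 and 8.85 in tumours, against 10.06, 10.16, 10.67 and 10.87 in livers. It too did not overlap, and it fell by 0.98 (SE 0.24, adjusted p = 0.0144). With the 3 averaged, Nampt fell by 0.89 (SE 0.23, adjusted p = 0.018). In each probe set tumour 5 was the lowest array and liver 4 the highest.

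Nmnat1 and Nmnat3 join nicotinamide mononucleotide to an adenylate group, Nmnat1 in the nucleus and Nmnat3 in mitochondria. Nmnat1 was lower in tumours by both of its probe sets. The main one, 1425773_s_at, whose suffix marks probes shared by several transcripts, read 8.13, 8.62, 7.81, 7.94 and 7.84 in tumours 1 to 5, against 8.52, 8.65, 8.76 and 9.29 in livers 1 to 4. Tumour 2 lay above liver 1, and Nmnat1 fell by 0.74 (SE 0.21, adjusted p = 0.0227). The call was lost without tumour 5 (-0.68, adjusted p = 0.0527) and without liver 4 (-0.57, adjusted p = 0.0518). Probe set 1429819_at read 7.16, 7.67, 6.70, 6.71 and 6.82 in tumours, against 7.63, 8.11, 8.09 and 8.20 in livers, and it fell by 0.99 (SE 0.21, adjusted p = 0.00793). Nmnat3 (1424899_at) read 7.86, 7.98, 7.64, 7.95 and 7.93 in tumours, against 8.01, 7.97, 8.50 and 8.02 in livers. Liver 3 was the highest array, and the difference of -0.25 (SE 0.13, 95% interval -0.54 to 0.04) did not pass (adjusted p = 0.153). The other Nmnat3 probe set, 1432342_at, was dim, at 4.41 to 4.62 in tumours and 4.33 to 4.52 in livers, and differed by 0.10 (adjusted p = 0.326).

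Nadsyn1, which amidates nicotinic acid adenine dinucleotide to NAD, was higher in tumours. Its probe set 1430359_a_at read 9.54, 9.30, 9.89, 9.63 and 9.78 in tumours 1 to 5, against 8.97, 9.09, 8.83 and 9.42 in livers 1 to 4. Tumour 2 lay below liver 4, and the means were 9.63 ± 0.23 in the 5 tumours and 9.08 ± 0.25 in the 4 livers (SD). Nadsyn1 rose by 0.55 (SE 0.15, adjusted p = 0.0203). The call was lost without liver 1 (0.52, adjusted p = 0.0586) and without liver 3 (0.47, adjusted p = 0.0591). The difference was 0.80 among arrays with high Xist and 0.01 among those with low Xist, a set of 2 tumours and 1 liver.

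Qprt, which turns quinolinate into nicotinic acid mononucleotide, did not pass. Its main probe set 1418836_at read 11.35, 12.10, 11.24, 11.19 and 11.52 in tumours 1 to 5, against 10.92, 11.09, 10.84 and 11.47 in livers 1 to 4. The groups overlapped through liver 4, and the difference was 0.40 (SE 0.20, 95% interval -0.06 to 0.86, adjusted p = 0.157). Probe set 1418837_at differed by 0.25 (adjusted p = 0.355). Sirt1 (1418640_at) read 7.48, 8.25, 8.14, 8.36 and 8.19 in tumours, against 8.35, 8.34, 8.38 and 8.25 in livers. Tumour 1 was the lowest array, and the difference of -0.24 (SE 0.16, 95% interval -0.62 to 0.13) did not pass (adjusted p = 0.275).

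Of the 9 measured genes, 1 was called higher in tumours (Nadsyn1, 11.1%) and 3 lay past the threshold as lower (Nmnat1, Aox1 and Nnmt, 33.3%), where Nnmt is counted as a description only. Over all genes, 16.1% were called higher and 17.4% lower. With each array centred at its 75th percentile, 2306 genes were called higher and 8040 lower, against 2926 and 3165 as deposited, and the median gene moved to -0.26, against -0.08. The groups did not overlap for Nnmt and Aox1, and for 29.8% of all genes. The median difference of the 9 genes was -0.65. Of the 14 probe sets 1 was past the threshold as higher and 6 as lower, Nnmt among them, against 13.5% higher and 14.5% lower among all probe sets. Because the genes were picked with results known, nothing is read from these counts.

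**Figure D3:**
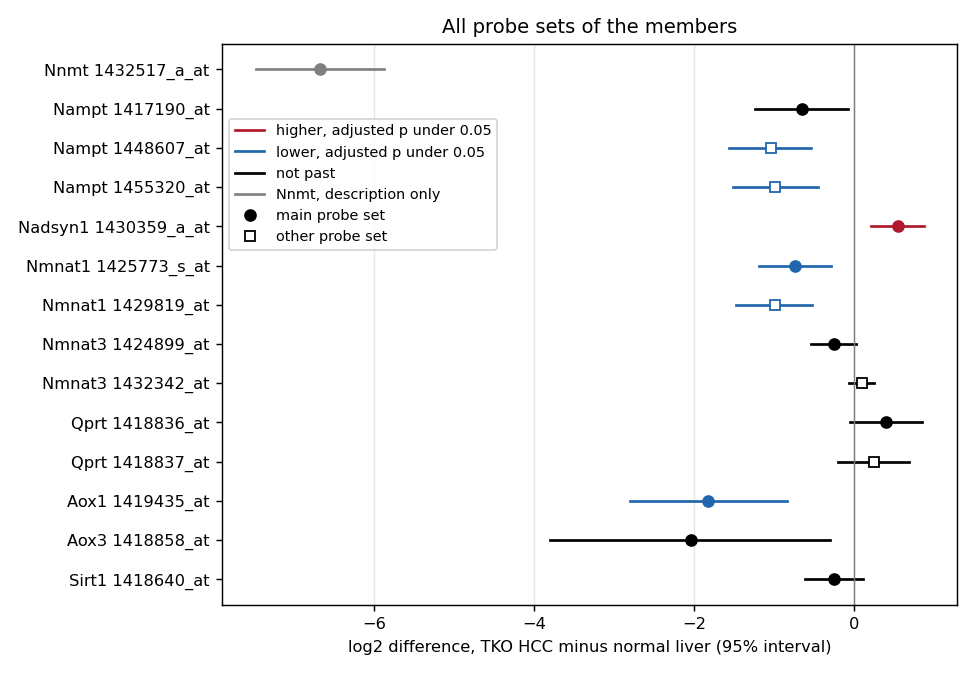
Log2 difference, tumour minus liver, of each of the 14 probe sets with its 95% interval, main and other probe sets marked and Nnmt in grey as description only. Nnmt lies at -6.68, the 3 Nampt probe sets lie between -1.04 and -0.65, and Nadsyn1 lies at 0.55.

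The tumours did not differ evenly from liver. Tumour 2 was the tumour nearest to the liver mean for 5 of the 9 genes (Nadsyn1, Nmnat1, Nmnat3, Aox1 and Aox3) and for 28.3% of all genes. Tumour 1 was the farthest for 4 genes (Nnmt, Aox1, Aox3 and Sirt1) and for 18.7% of all genes. Tumour 3 was the farthest for 3 genes (Nadsyn1, Nmnat1 and Nmnat3) and, more often than any other tumour, for 25.2% of all genes. As the genes were picked with results known, nothing is read from their order.

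Beyond these genes, 51 of 54 other genes of the pathway were measured. Of them 4 were called higher (7.84%) and 15 lower (29.4%), 32 did not pass, and the median difference was -0.28. Over all genes the shares were 16.1% and 17.4% and the median -0.08. These lists were also chosen with results known, were not tested as lists, and nothing is read from their counts. In the list for the tryptophan route 5 of 10 measured genes were called lower. That count was 3 without tumour 3 or any 1 of livers 1, 2 and 3. The list includes aminotransferases (Aadat, Kyat1 and Kyat3) that take kynurenine off the route to quinolinate. Kynu, the kynureninase that splits kynurenine products, fell by 1.95 (SE 0.30, adjusted p = 0.00125). It read 9.30, 10.13, 8.52, 9.70 and 9.67 in tumours, against 11.67, 11.68, 11.09 and 11.23 in livers. Aadat, an aminotransferase of kynurenine, fell by 1.84 (SE 0.25, adjusted p = 0.000708), at 9.27 to 10.28 in tumours and 11.30 to 12.11 in livers. Kmo, the kynurenine hydroxylase, fell by 0.92 (adjusted p = 0.014). Tdo2, which opens the tryptophan ring, fell by 0.94 (adjusted p = 0.0466), and Kyat3, another aminotransferase, fell by 1.09 (adjusted p = 0.0436). The calls of Tdo2 and Kyat3 were each lost in 8 of the 17 alternatives, among them those without tumour 3 and without any 1 of livers 1, 2 and 3. Ido2 differed by -1.07 (adjusted p = 0.0503) and Haao by -0.72, and neither passed.

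Among the other salvage genes 2 of 6 were called lower (33.3%), against 17.4% of all genes. Nmrk1, a kinase of nicotinamide riboside, fell by 2.25 (SE 0.48, adjusted p = 0.007). It read 6.39, 7.44, 6.38, 5.53 and 7.40 in tumours, against 9.14, 7.68, 9.63 and 9.05 in livers, so liver 2 lay nearest the tumours without overlap. Of the other Nmrk1 probe sets, 1447503_at fell by 1.91 (adjusted p = 0.000401), and 1448048_at differed by -0.38 and did not pass (adjusted p = 0.0875). Pnp, a purine nucleoside phosphorylase that also cleaves nicotinamide riboside, fell by 0.56 (adjusted p = 0.0266), a call lost in 7 alternatives, among them those without tumour 1 or 4 or any 1 of livers 1 to 3. Naprt, which starts salvage of nicotinic acid, differed by 0.38 and did not pass.

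Of 6 genes that make NADP or keep up and move NAD, 3 were called lower, against 17.4% of all genes. The number called lower in this list ran from 1 to 4 over all settings. Naxd, which repairs hydrated NADH, fell by 0.75 (SE 0.11, adjusted p = 0.00109), at 10.03 to 10.42 in tumours and 10.85 to 11.21 in livers. Slc25a51, the mitochondrial NAD carrier, fell by 0.94 (SE 0.19, adjusted p = 0.00551), a call lost in 1 alternative. Nadk, the cytosolic NAD kinase, fell by 0.64 (adjusted p = 0.0437), a call lost in 9 alternatives, among them those without tumour 3, 4 or 5 or any 1 liver. The mitochondrial kinase gene Nadk2 differed by 0.00 and did not pass.

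Of 16 other NAD consumers, 3 were called higher (18.8%), 2 were called lower (12.5%) and 11 did not pass, with a median difference of 0.01. The shares of all genes were 16.1% higher and 17.4% lower, near those of this list. Parp2, a poly(ADP-ribose) polymerase of DNA repair, rose by 1.07 (SE 0.12, adjusted p = 0.00024). It read 9.88, 9.58, 9.53, 9.64 and 9.95 in tumours, against 8.51, 8.87, 8.70 and 8.51 in livers, without overlap. Parp1, its larger relative, rose by 0.69 (SE 0.13, adjusted p = 0.00348), although its probe set 1435368_a_at differed by 0.10 and did not pass. Parp4 rose by 0.58 (adjusted p = 0.0207), a call lost in 5 alternatives, among them those without liver 2, 3 or 4. The other Parp4 probe set, 1441026_at, differed by 0.15 and did not pass (adjusted p = 0.296). Of the mitochondrial sirtuins, Sirt3 fell by 1.17 (SE 0.29, adjusted p = 0.0151) and Sirt4 fell by 0.95 (SE 0.14, adjusted p = 0.000918), while Sirt5 differed by 0.00 (adjusted p = 0.998). Sirt4 read 7.57 to 8.21 in tumours and 8.68 to 9.05 in livers.

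On the aldehyde oxidase side, 2 of 7 genes were called lower (28.6%), against 17.4% of all genes. Of the genes for synthesis of the molybdenum cofactor, Mocs1 fell by 0.63 (SE 0.12, adjusted p = 0.00361) and Mocs2 fell by 0.97 (SE 0.21, adjusted p = 0.00814). The other Mocs1 probe set, 1425004_s_at, differed by -0.40 and did not pass (adjusted p = 0.264). The other Mocs2 probe set, 1424310_at, fell by 0.83 (adjusted p = 0.041). Mocs3 differed by -0.09 (adjusted p = 0.548), Gphn by -0.45 (adjusted p = 0.0641) and Mocos, which modifies the cofactor, by 0.27 (adjusted p = 0.0548), and none of the 3 passed. Xdh, the related xanthine dehydrogenase, differed by -0.23 and did not pass. On the methyl donor side, which supplies and clears S-adenosylmethionine, 1 of 6 genes was higher and 1 lower. These shares were 16.7% each, against 16.1% and 17.4% of all genes. Mat2b, the regulatory subunit of an S-adenosylmethionine synthetase, rose by 0.41 (adjusted p = 0.0161), and Ahcy, which clears S-adenosylhomocysteine, fell by 0.92 (adjusted p = 0.0198), each call lost in 3 alternatives, for Ahcy among them those without liver 1 or 4. Mat1a, Gnmt and Pemt differed by -1.23, -1.40 and -1.24 without passing (adjusted p = 0.0695, 0.0952 and 0.067).

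**Figure D4:**
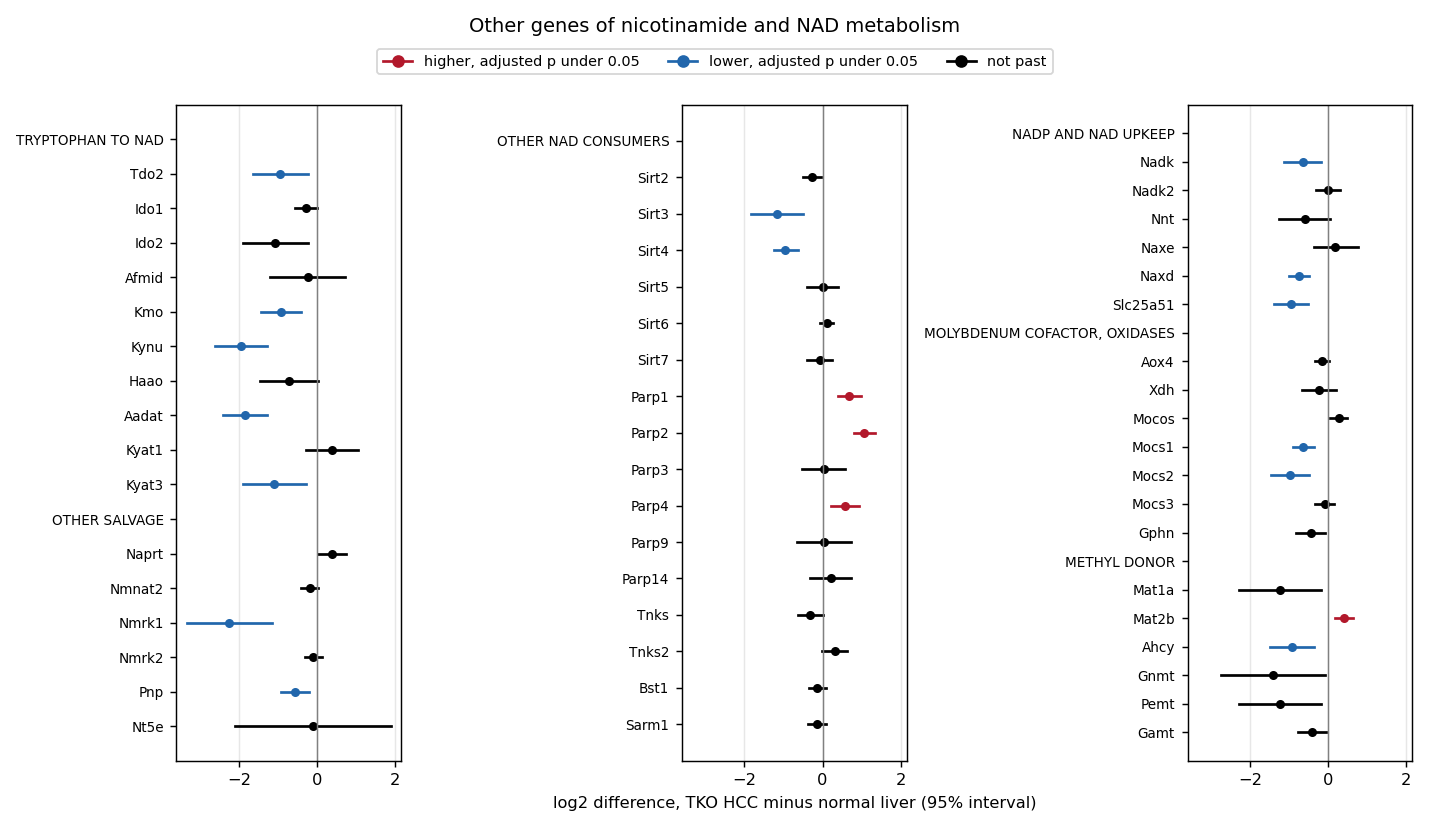
Log2 difference, tumour minus liver, with 95% interval for the other measured pathway genes, grouped by list and marked by call. Kynu, Aadat and Nmrk1 lie near -2, and Parp2 at 1.07 is the largest increase among called genes.

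Markers of cell types were set beside these values, as averages of each list on the log2 scale. Hepatocyte markers averaged 13.71 to 14.35 in tumours and 14.43 to 14.48 in livers, with 1 of 6 called lower (Apob, -0.61). Tat differed by -1.72 without overlap or passing, and Hnf4a by 0.20. Alb, Ttr and Apoa1 differed by 0.08, -0.11 and 0.05, near the highest value on the arrays, 15.55, where differences can be compressed. Macrophage markers averaged 8.21 to 10.14 in tumours and 9.48 to 10.59 in livers, with 2 of 6 lower (Clec4f -3.51, Csf1r -1.53). The other 4 did not pass, with Adgre1 at -0.53, Cd68 at 0.69, Lyz2 at -0.07 and Ptprc at -0.35. Endothelial markers averaged 7.14 to 8.36 in tumours and 8.0 to 8.75 in livers, with 2 of 5 lower (Stab2 -1.60, Kdr -1.15) and the other 3 between -0.37 and 0.40. Stellate markers averaged 7.90 to 9.39 in tumours and 8.36 to 8.95 in livers, with 1 of 5 higher (Col1a1 2.14), 2 lower (Dcn -1.88, Lrat -1.90), and Des at 0.06 and Pdgfrb at 0.86 not past. Cholangiocyte markers averaged 6.32 to 6.71 in tumours and 6.20 to 6.53 in livers, with 1 of 4 higher (Sox9 1.32), 1 lower (Krt7 -0.29), and Krt19 at -0.26 and Epcam at 0.11 not past. T and NK cell markers averaged 5.95 to 6.73 in tumours and 6.04 to 6.70 in livers, with differences of -0.18 to 0.00 in 4 genes. B and plasma cell markers averaged 5.71 to 7.73 in tumours and 6.56 to 7.67 in livers, with 1 of 4 lower (Ms4a1 -1.12) and the other 3 between -0.47 and -0.22. These calls are of main probe sets. Other probe sets of Csf1r (-0.70 and -0.44), Col1a1 (0.47), Lrat (-0.75), Sox9 (0.86 and 0.06) and Ms4a1 (-0.44) did not pass. Those of Dcn (-0.68), Apob (-0.80) and Des (-0.38) passed as lower, although the main probe set of Des did not pass. Among all genes 16.1% were called higher and 17.4% lower, and nothing is read from the marker counts. No marker list lay within the TrpnX range in both groups, and the part of these cell types in the differences was not tested.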

How the data were processed

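Gene expression was measured in 5 tumours and 4 livers, 1 Affymetrix array each. The deposited values are log2 expression per probe set made by the authors with RMA, per the submitters' processing notes; the RMA version is not given in sources used here. RMA compresses differences of dim probe sets, and quantile normalisation can mask a change in total RNA. All 9 columns were used as deposited.

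Of 45101 probe sets, 34945 named 1 gene, 932 several and 9160 none, and 64 were controls. Groups came from sample titles. For 18193 genes the brightest probe set (mean over the 9 arrays) was compared with limma 3.58.1 (lmFit, eBayes, two-sided, R 4.3.3), adjusted by Benjamini-Hochberg over all genes; probe sets other than the main one come from a second fit over 45037 probe sets. The threshold was 0.05. The closest arrays differed by 0.295 (root mean square), so none was taken for a duplicate. The script was tested on simulated data.

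Members, lists and tests were chosen with earlier results of these data known. All members are named by every probe set; other pathway genes may be named from lists counted whole, and likeness takes the 5 nearest genes. Python 3.11.15, pandas 2.3.3, scipy 1.17.1 and matplotlib 3.10.9 were used. Alternatives were the mean of probe sets, 2 other scalings, a filter on dim probe sets, limma-trend, a replicate block, Xist as a covariate, arrays with high Xist alone, and each array left out.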

Additional observations from a re-analysis of the deposited data

Results flagged for a closer look

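Among 18 groups of arrays looked at (9 genes, tumours and livers apart), 2 held an array far from the others by Dixon's test at 95%. Chance marks about 5% of groups in this way. Nmnat3 was 8.50 in liver 3 and 8.02 in the next liver, a gap of 0.894 of that group's range. Sirt1 was 7.48 in tumour 1 and 8.14 in the next tumour, a gap of 0.748 of the range.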

How the results depend on the processing

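No called difference among the members turned its sign in the 17 alternatives. Nnmt ranged from -7.06 to -6.40. With arrays centred on their 75th percentile, 10346 genes and 25194 probe sets were called, against 6091 and 12585 in the main setting, and 22.3% of called genes were higher, against 48.0%. In that setting 6 members were past the threshold as lower instead of 3, Nnmt counted in both, including Nampt (-0.83, adjusted p = 0.0235), Nmnat3 (-0.43, adjusted p = 0.0249) and Aox3 (-2.22, adjusted p = 0.0356). Nampt also passed with Xist as a covariate (-0.71, adjusted p = 0.0315), and its probe set 1455320_at did not pass in arrays with high Xist alone (-0.92, adjusted p = 0.053). Leaving out 1 array gave 0 to 1 members higher and 2 to 4 lower, Nnmt counted. With arrays centred on housekeeping genes, 2556 genes were called higher and 2029 lower, against 2926 and 3165 in the main setting. For the replicate block, numbers 1 to 4 were taken as pairs, although deviations of same-numbered arrays correlated at only -0.129 to 0.18 and 2 of 8 arrays correlated best with their own number. With the block 3552 genes, 6917 probe sets and 0 members higher were called, and Nadsyn1 (0.51, adjusted p = 0.0993) and Nmnat1 (-0.68, adjusted p = 0.109) lost their calls, as did the other Nmnat1 probe set, 1429819_at (-0.95, adjusted p = 0.0502), and Slc25a51 (adjusted p = 0.0515). Over all settings 2 to 5 of the other pathway genes were higher and 10 to 30 lower. With the 75th percentile scaling the median gene moved from -0.08 to -0.26, and the reason for that move was not tested. The number of arrays and dim probe sets limit what can be detected.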
